A study of Mus musculus with 8 samples.

Results

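The transcripts of 6 genes, Ifitm1, Ifitm2, Ifitm3, Bst2, Ly6e and Ly6a, were followed in endothelial cells (ECs) of mouse tumours. Their products sit in or on the cell membrane and are known to be induced by interferon. They are 6 of the 20408 genes listed in any of 8 single-cell RNA libraries, and they were chosen by name. Cells were taken as endothelial where they held at least 1 UMI (unique molecular identifier, a tag that marks 1 captured RNA molecule) of Pecam1, the gene of CD31, which left 7159 of 8204 deposited cells.

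All libraries came from sorted CD31+ ECs (the methods gate live ECs as CD45- and CD31+) of mammary tumours driven by the MMTV-PyMT transgene, in which a mammary-active viral promoter drives polyoma middle T antigen. Spontaneous tumours had arisen in MMTV-PyMT females of 9 weeks. Implanted tumours had grown in the mammary fat pad of adult females without the transgene after injection of briefly cultured MMTV-PyMT tumour cells in Matrigel. Whether all their vessels came from the host was not tested. Each tumour received either PBS or 14 µg of cGAMP, a cyclic dinucleotide that activates the innate sensor STING, in a 70 µl intratumoural injection, and was sampled 3 h later. This gave 4 groups of 2 libraries each, named here by model and injection, and the study states 2 mice for each group. The sample labels give the strain as C57BL/6 and the methods as FVB, so the strain was not settled. No group was left uninjected.

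IFITM proteins are small membrane proteins that hinder the fusion of virus and cell membranes. IFITM1 is held largely at the cell surface, whereas IFITM2 and IFITM3 reside mainly in endosomes and lysosomes. Tetherin, the product of Bst2, is anchored in the membrane at both ends, by a transmembrane segment and a glycosylphosphatidylinositol (GPI) anchor, and tethers budding virus particles to the cell. LY6E and LY6A belong to the LY6 family of GPI-anchored surface proteins. LY6E impairs the fusion of coronaviruses, and LY6A, also called SCA-1, marks mouse haematopoietic stem cells and is found on many ECs. Type I interferon, bound by the IFNAR1 and IFNAR2 receptor chains, induces such genes through ISGF3, a transcription factor complex that binds the interferon-stimulated response element (ISRE) in promoters.

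In the GRCm38 (mm10) build, with the GENCODE vM21 annotation, the 3 Ifitm genes lie side by side on chromosome 7, Ifitm2 at chr7:140954837-140955987 on the minus strand, Ifitm1 at chr7:140967221-140969825 on the plus strand and Ifitm3 at chr7:141009586-141010770 on the minus strand. Bst2 lies at chr8:71534255-71537456 on the minus strand. Ly6e, at chr15:74955051-74959905 on the plus strand, and Ly6a, at chr15:74994877-74998031 on the minus strand, lie near each other on chromosome 15. All 6 are protein-coding genes. Transcripts of Ifitm2 and Ifitm3 share an identical stretch of 69 bases, those of Ifitm1 and Ifitm3 one of 64, and those of Ly6a and its neighbour Ly6c1 one of 118, so reads confined to these stretches could not be assigned to 1 gene. Ifitm2 also overlaps Gm45717, an annotated gene on the same strand.

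The RefSeq promoter sequences (GRCm38.p6) are shown for the 4 genes of the set that the promoter table held, because the genes of 1 cluster differed widely in how far they rose after cGAMP. Each runs 5′ to 3′ over the 250 bases before the RefSeq gene start, on the strand of the gene, and capitals mark matches to the core of the ISRE, taken as GAAA, any 2 bases and GAAA again, on either strand. The windows are chr7:140967826-140968075 on the plus strand for Ifitm1, chr7:140955962-140956211 on the minus strand for Ifitm2, chr7:141010745-141010994 on the minus strand for Ifitm3 and chr8:71537473-71537722 on the minus strand for Bst2.
Ifitm1: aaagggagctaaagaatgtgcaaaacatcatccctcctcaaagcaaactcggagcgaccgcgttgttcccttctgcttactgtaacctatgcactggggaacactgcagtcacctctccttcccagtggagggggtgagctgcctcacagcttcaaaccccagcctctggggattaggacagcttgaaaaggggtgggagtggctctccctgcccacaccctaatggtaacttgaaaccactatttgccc
Ifitm2: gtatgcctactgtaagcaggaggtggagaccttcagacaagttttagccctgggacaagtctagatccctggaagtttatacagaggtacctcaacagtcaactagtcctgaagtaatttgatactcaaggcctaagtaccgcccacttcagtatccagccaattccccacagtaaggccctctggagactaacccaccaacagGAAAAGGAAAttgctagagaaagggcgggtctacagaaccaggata
Ifitm3: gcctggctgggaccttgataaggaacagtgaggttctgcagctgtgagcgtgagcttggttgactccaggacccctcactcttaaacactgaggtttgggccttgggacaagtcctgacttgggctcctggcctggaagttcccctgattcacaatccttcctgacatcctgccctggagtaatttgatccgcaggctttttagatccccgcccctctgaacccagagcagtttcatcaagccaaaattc
Bst2: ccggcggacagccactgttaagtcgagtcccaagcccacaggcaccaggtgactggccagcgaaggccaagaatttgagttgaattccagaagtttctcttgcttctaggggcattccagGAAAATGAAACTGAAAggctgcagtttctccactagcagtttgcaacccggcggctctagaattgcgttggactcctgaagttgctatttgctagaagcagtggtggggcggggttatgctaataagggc
Bst2 held 2 matches, which overlap each other and start 130 and 124 bases before the gene start. Ifitm2 held 1, starting 46 bases before it. No match stood in the windows of Ifitm1 and Ifitm3, although 2 matches stood in the first 50 bases after the start of Ifitm3. The RefSeq and GENCODE starts of Ifitm1 differ. Its window lies inside the GENCODE gene, which starts at chr7:140967221, and the bases before that start were not searched. Such a match stood in 2.98% of 32851 promoters of this length, and in 3.44% of windows that also took in the 50 bases after the start. A match describes letters only. Ly6e and Ly6a are named without a sequence.

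The libraries held 97421522 UMIs in all, of which 94908667 came from cells with a Pecam1 UMI, and 601 to 1529 such cells each. Replicate 1 of implanted cGAMP stood apart, since its median Pecam1 cell held 3049 UMIs, against 9523 to 14708 in the other 7, and 62.1% of its Pecam1 cells reached 2000 UMIs, against 89.4% to 96.7%. Of 8197 barcodes, 7 occurred in 2 libraries. Summed markers of ECs took 5443.5 to 6552 CPM in every library. CPM is a gene's share of the UMIs of a cell, scaled so that all genes sum to 1000000. These sums cover cells already chosen by a Pecam1 UMI, and Pecam1 is 1 of the 8 markers. They are therefore no separate check of the sort. Of all deposited cells, 1045 lacked a Pecam1 UMI. Replicate 1 of implanted cGAMP had the lowest share of Pecam1 cells, 75.5%, where no other library fell below 88.7%. Among the Pecam1 cells, markers of other cell types were found at lower sums. Mural markers, of pericytes and smooth muscle, summed to 83.5 and 426 CPM in spontaneous PBS, 715 and 570.0 CPM in spontaneous cGAMP, 105 and 75.3 CPM in implanted PBS, and 202 and 119 CPM in implanted cGAMP. Immune markers summed to 12.8 to 36.9 CPM in the spontaneous libraries, 10.6 and 22.9 CPM in implanted PBS, and 233 and 66.0 CPM in implanted cGAMP. Fibroblast markers summed to 12.1 to 88.5 CPM and epithelial markers to 160.1 to 1103 CPM, the last in the shallow implanted cGAMP library. No list had a marker at 0 in every library.

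Injection of cGAMP raised transcripts of tetherin, IFITM3, LY6A and LY6E in ECs of both tumour models within 3 h. As a mean over Pecam1 cells, the 6 genes together took 0.476% and 0.474% of a cell's UMIs in spontaneous PBS. Their mean share was 1.66% and 1.54% in spontaneous cGAMP, 0.827% and 0.737% in implanted PBS, and 1.85% and 1.96% in implanted cGAMP. Levels are mean CPM over the Pecam1 cells of a library. Differences between groups are log2 differences of that level plus 1 CPM, tested with limma over all 8 libraries, and a gene was called at an adjusted p under 0.05 over the 10424 genes tested. For all 6 genes both cGAMP libraries lay above both PBS libraries in each model. Groups of 2 separate often, and of all genes tested they did not overlap for 60.3% in spontaneous (18.8% with cGAMP higher) and 63.1% in implanted tumours (21.6% with cGAMP higher). Ifitm2, Ifitm3, Bst2, Ly6e and Ly6a reached 5 CPM in 8 of 8 libraries. Ifitm1 did so in 5 of 8, among them all 4 cGAMP libraries, so it passed the filter on low values through the group in which it was high. Of all genes tested, limma called 12.7% in the spontaneous comparison (5.09% as higher and 7.59% as lower) and 25% in the implanted comparison (8.6% as higher and 16.4% as lower). Of the 5 genes not filtered through cGAMP, 4 rose in the spontaneous and 5 in the implanted comparison, and Ifitm1 was called as higher in both.

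**Figure D1:**
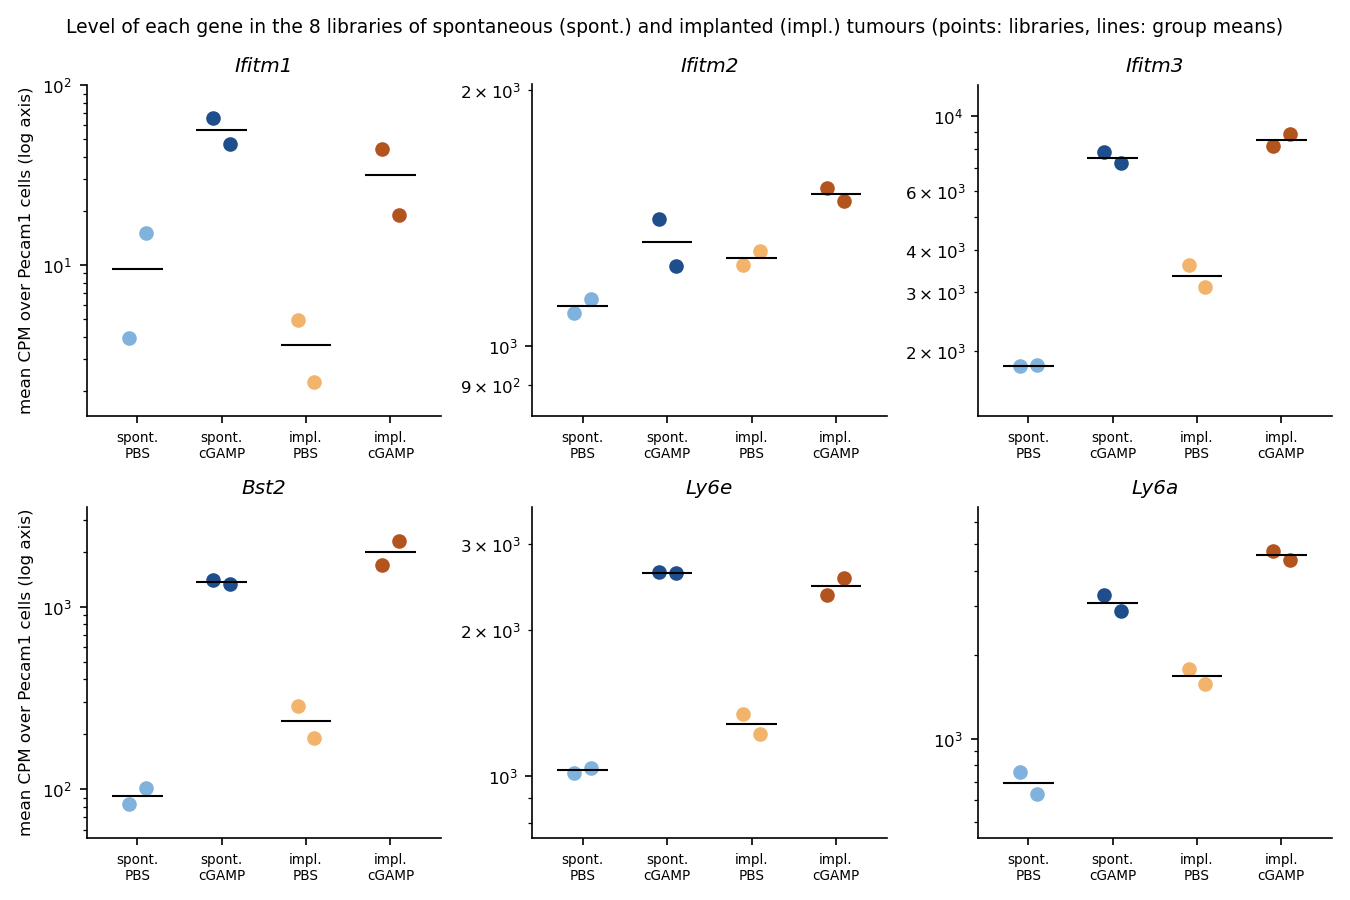
Level of each of the 6 genes in the 8 libraries, as mean CPM over Pecam1 cells on log axes, with a point for each library and a line at the mean of each group of 2. The cGAMP points of Bst2 lie at 1333 to 2301 CPM and its PBS points at 82.6 to 285 CPM, whereas those of Ifitm2 lie within 1094 to 1534 CPM in all groups.

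Ifitm3, whose product guards endosomes, stood at 1805 and 1817 CPM in spontaneous PBS and at 7801 and 7242.5 CPM in spontaneous cGAMP. In implanted tumours it stood at 3604 and 3096 CPM after PBS and at 8131 and 8830 CPM after cGAMP. Every cGAMP library was thus above every PBS library of either model, and the implanted PBS libraries were above the spontaneous PBS ones. How many of all genes separate in these ways was not counted. The log2 difference was 2.05 ± 0.09 (SE, adjusted p = 6.8e-07), a 4.15-fold rise, in spontaneous tumours. It was 1.34 ± 0.09 (adjusted p = 1.5e-05), a 2.54-fold rise, in implanted tumours.

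Ifitm2, which lies near it on chromosome 7, was detected at similar levels in all groups. Its libraries stood at 1094 and 1134 CPM in spontaneous PBS, 1408 and 1242 CPM in spontaneous cGAMP, 1244 and 1293 CPM in implanted PBS, and 1534 and 1481 CPM in implanted cGAMP. The log2 difference between cGAMP and PBS was 0.25 ± 0.08 in both models, with 95% intervals of 0.08 to 0.42 in each. It passed the test in implanted tumours (adjusted p = 0.0389) and not in spontaneous tumours (adjusted p = 0.0615), and neither outcome was stable. The implanted call was lost without any 1 of the 4 implanted libraries (0.22 to 0.28, adjusted p = 0.0594 to 0.175) and without either spontaneous PBS library (adjusted p = 0.0545 and 0.0539). The spontaneous difference was called without either implanted cGAMP library (adjusted p = 0.0483 and 0.0491) and with another scaling of the libraries, by median of ratios (0.35, adjusted p = 0.0165).

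Bst2, the gene of tetherin, had the largest fold change of the 5 genes expressed in all libraries. It stood at 82.6 and 102 CPM in spontaneous PBS and at 1408 and 1333 CPM in spontaneous cGAMP. In implanted tumours it stood at 285 and 191 CPM after PBS and at 1687 and 2301 CPM after cGAMP. The log2 difference was 3.88 ± 0.19 (adjusted p = 1.5e-06, 14.8-fold) in spontaneous and 3.07 ± 0.19 (adjusted p = 1.2e-05, 8.42-fold) in implanted tumours, which placed Bst2 at rank 26 and rank 64 of the 10424 genes by fold change.

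Ly6e stood at 1015 and 1041 CPM in spontaneous PBS, 2630.1 and 2619 CPM in spontaneous cGAMP, 1345 and 1219 CPM in implanted PBS, and 2358 and 2558 CPM in implanted cGAMP. Its log2 difference was 1.35 ± 0.07 (adjusted p = 2.3e-06, 2.55-fold) in spontaneous and 0.94 ± 0.07 (adjusted p = 4.0e-05, 1.92-fold) in implanted tumours. Ly6a stood at 756 and 629 CPM in spontaneous PBS, 3274 and 2865.5 CPM in spontaneous cGAMP, 1783 and 1564 CPM in implanted PBS, and 4741 and 4381 CPM in implanted cGAMP. Its log2 difference was 2.15 ± 0.11 (adjusted p = 1.5e-06, 4.44-fold) in spontaneous and 1.45 ± 0.11 (adjusted p = 3.2e-05, 2.73-fold) in implanted tumours. Both of these genes of chromosome 15 therefore rose, and all 4 cGAMP libraries lay above all 4 PBS libraries for each. The share of all genes that separate in this way was not counted.

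Ifitm1 was rare, with 3.94 and 15.03 CPM in spontaneous PBS, 65.7 and 47.0 CPM in spontaneous cGAMP, 4.94 and 2.23 CPM in implanted PBS, and 44.3 and 19.1 CPM in implanted cGAMP. Over all Pecam1 cells its log2 difference was 2.67 ± 0.54 (adjusted p = 0.0129) in spontaneous and 2.78 ± 0.54 (adjusted p = 0.00547) in implanted tumours. The spontaneous call was lost without spontaneous PBS replicate 1 (1.82, adjusted p = 0.076), spontaneous cGAMP replicate 1 (2.43, adjusted p = 0.11) or spontaneous cGAMP replicate 2 (2.90, adjusted p = 0.0603). The implanted call was lost without implanted PBS replicate 2 (2.35, adjusted p = 0.0514). Mural marker sums moved with Ifitm1 among the spontaneous libraries.

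Most Ifitm1 UMIs of 3 of the 4 spontaneous libraries came from cells that also held mural transcripts. Pecam1 cells with UMIs of at least 2 of 6 mural markers numbered 23 and 33 in spontaneous PBS, 134 and 87 in spontaneous cGAMP, 20 and 20 in implanted PBS, and 126 and 52 in implanted cGAMP. They held 864 of 886 and 648 of 676 Ifitm1 UMIs of the spontaneous cGAMP libraries, and 17 of 38 and 188 of 195 of the spontaneous PBS libraries. In implanted tumours they held 55 of 119 and 14 of 30 after PBS, and 340 of 469 and 168 of 233 after cGAMP. In Pecam1 cells without any mural marker Ifitm1 stood at 1.56 and 0.715 CPM in spontaneous PBS and at 2.81 and 2.48 CPM in spontaneous cGAMP. In implanted tumours those cells stood at 2.81 and 0.851 CPM after PBS and at 28.0 and 11.5 CPM after cGAMP. The 28.0 CPM is of replicate 1, the shallow library, with a median of 3049 UMIs per Pecam1 cell. A cell with few UMIs can lack a mural marker by depth alone, and the part of this was not tested. With stricter endothelial cells, which carried UMIs of at least 2 of the 5 genes Cdh5, Kdr, Tie1, Egfl7 and Cldn5 and none of Ptprc, Epcam, Col1a1 or Rgs5, the spontaneous difference was 0.48 and not called (adjusted p = 0.579), and the implanted difference was 2.24 and called (adjusted p = 0.00923). After cGAMP, Ifitm1 of these cells was then higher in the implanted model (2.06, adjusted p = 0.026), whereas over all Pecam1 cells this difference was -0.91 ± 0.54 (adjusted p = 0.296). The stricter values rest on few molecules, 11 and 5 UMIs in spontaneous PBS, 10 and 3 in spontaneous cGAMP, 59 and 12 in implanted PBS, and 46 and 32 in implanted cGAMP. Immune marker sums were also highest in the implanted cGAMP libraries, although the gate removes CD45+ cells. Ptprc, the gene of CD45, stood there at 24.7 and 10.2 CPM, against 0.16 to 3.55 CPM in the other 6 libraries. Stricter cells hold no Ptprc UMI, and the part of immune RNA in the implanted value was not tested beyond that.

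**Figure D2:**
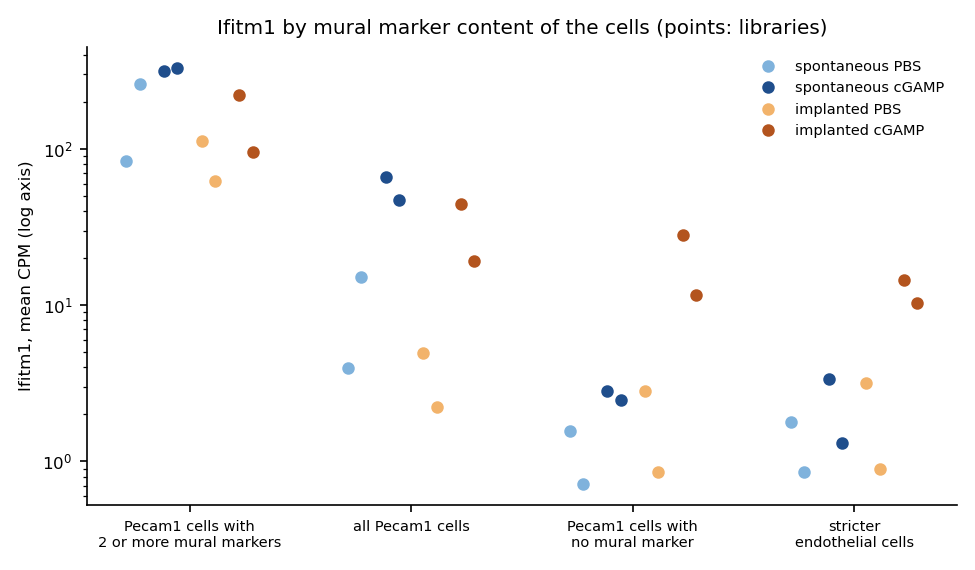
Mean CPM of Ifitm1 on a log axis in Pecam1 cells with at least 2 mural markers, in all Pecam1 cells, in those with no mural marker and in stricter endothelial cells, with a point for each of the 8 libraries, coloured by group. Among cells with no mural marker the implanted cGAMP libraries lie at 28.0 and 11.5 CPM and the other 6 at 0.715 to 2.81 CPM. The 28.0 CPM is of replicate 1, the shallow library.

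Of the 10424 genes, 0.662% (0.201% with a higher and 0.46% with a lower value in implanted tumours) differed between the models in their response to cGAMP, tested as the interaction of model and injection. Ifitm3 was the 1 gene of the 6 that passed, with a smaller response in implanted tumours (implanted minus spontaneous -0.71 ± 0.12 on the log2 scale, 95% interval -0.99 to -0.43, adjusted p = 0.0459). This call lay close to the threshold. It was lost without implanted PBS replicate 1 (-0.60, adjusted p = 0.138), implanted cGAMP replicate 1 (-0.65, adjusted p = 0.0599), spontaneous PBS replicate 1 (-0.70, adjusted p = 0.119), spontaneous PBS replicate 2 (-0.71, adjusted p = 0.124), spontaneous cGAMP replicate 1 (-0.66, adjusted p = 0.143) or spontaneous cGAMP replicate 2 (-0.76, adjusted p = 0.194). The same difference was -0.70 ± 0.15 for Ly6a (adjusted p = 0.0886), -0.41 ± 0.10 for Ly6e (adjusted p = 0.125) and -0.81 ± 0.27 for Bst2 (adjusted p = 0.255), none of which was called. For Ifitm2 it was 0.00 ± 0.11, with a 95% interval of -0.24 to 0.24, and for Ifitm1 0.12 ± 0.77, an interval of -1.61 to 1.84.

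After PBS alone the genes already differed between the models. Higher levels in implanted than in spontaneous tumours were found for Ly6a (1.28 ± 0.11 on the log2 scale, 2.42-fold, adjusted p = 0.000244), Ifitm3 (0.88 ± 0.09, 1.84-fold, adjusted p = 0.000594), Bst2 (1.33 ± 0.19, 2.52-fold, adjusted p = 0.00371) and Ly6e (0.32 ± 0.07, 1.25-fold, adjusted p = 0.0322). Of all genes 7.83% were called here, 3.39% as higher and 4.44% as lower. The call for Ly6e was lost without either implanted PBS library (0.25 and 0.39, adjusted p = 0.211 and 0.0563), either spontaneous PBS library (0.30 and 0.34, adjusted p = 0.116 and 0.138) or either spontaneous cGAMP library (adjusted p = 0.0647 and 0.0648). Ifitm2 (0.19 ± 0.08, adjusted p = 0.168) and Ifitm1 (-1.02 ± 0.54, adjusted p = 0.284) were not called. Carriage of the transgene by the host and the origin of the tumour changed together in this comparison and cannot be told apart.

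After cGAMP, Ly6a was higher in implanted tumours (0.57 ± 0.11, 1.49-fold, adjusted p = 0.0109), in a comparison that called 13.8% of all genes, 5.23% as higher and 8.53% as lower. Its call was lost without spontaneous cGAMP replicate 2 (0.48, adjusted p = 0.111). Differences of 0.52 ± 0.19 for Bst2 (adjusted p = 0.101), 0.17 ± 0.09 for Ifitm3 (adjusted p = 0.218), 0.19 ± 0.08 for Ifitm2 (adjusted p = 0.129) and -0.10 ± 0.07 for Ly6e (adjusted p = 0.419) were not called. Bst2 was called without implanted cGAMP replicate 1, the shallow library (0.75, adjusted p = 0.0487). The comparisons share their PBS and cGAMP libraries, so a difference in response and a difference after PBS are not independent of each other.

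**Figure D3:**
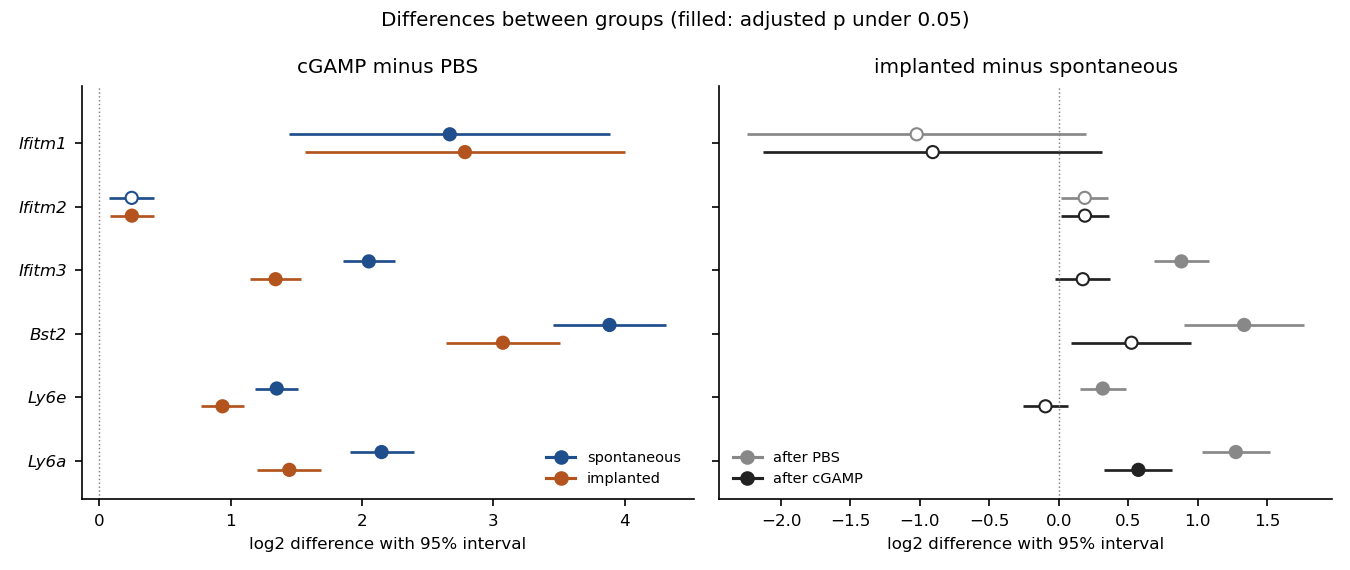
Log2 differences of the level plus 1 CPM with 95% intervals from limma, for cGAMP minus PBS in each model (left) and for implanted minus spontaneous after each injection (right), with filled points at an adjusted p under 0.05. On the left Bst2 reaches 3.88 and 3.07 while Ifitm2 stays at 0.25 in both models, and on the right Ly6a, Ifitm3, Bst2 and Ly6e are filled after PBS and Ly6a alone after cGAMP.

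How the calls of all genes split by direction depended on the scaling. On the CPM scale, 40.2% of the genes called in the spontaneous response were higher, 34.3% in the implanted response, 43.3% after PBS and 38% after cGAMP. With median-of-ratios scaling these shares were 66.2%, 51.4%, 67.8% and 58.4%, and the median log2 difference of all genes moved from -0.10 to -0.00 in the spontaneous and to -0.01 in the implanted response. The 4 rises of Ifitm3, Bst2, Ly6e and Ly6a kept their direction and call in both models under either scaling.

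The whole distribution over cells shifted for Ifitm3 and Bst2. In Pecam1 cells with at least 2000 UMIs, the lowest 10th percentile of Ifitm3 in a cGAMP library, 3962 CPM, lay above the median of every PBS library (1561 to 3141 CPM). For Bst2 the median cell stood at 0 and 48.0 CPM in spontaneous PBS, 1237 and 1208 CPM in spontaneous cGAMP, 201 and 109 CPM in implanted PBS, and 1658 and 2220.2 CPM in implanted cGAMP. The 10th percentile of Bst2 after cGAMP was 413 and 424 CPM in spontaneous and 622 and 789 CPM in implanted tumours. Ly6a spread more widely. Its 10th to 90th percentiles ran from 0 to 2312 CPM and from 0 to 1863 CPM in spontaneous PBS, and from 517 to 6704 CPM and from 640 to 6008 CPM in spontaneous cGAMP. In implanted tumours they ran from 55.3 to 4261 CPM and from 42.5 to 3951 CPM after PBS, and from 858 to 9905 CPM and from 222 to 8379 CPM after cGAMP.

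**Figure D4:**
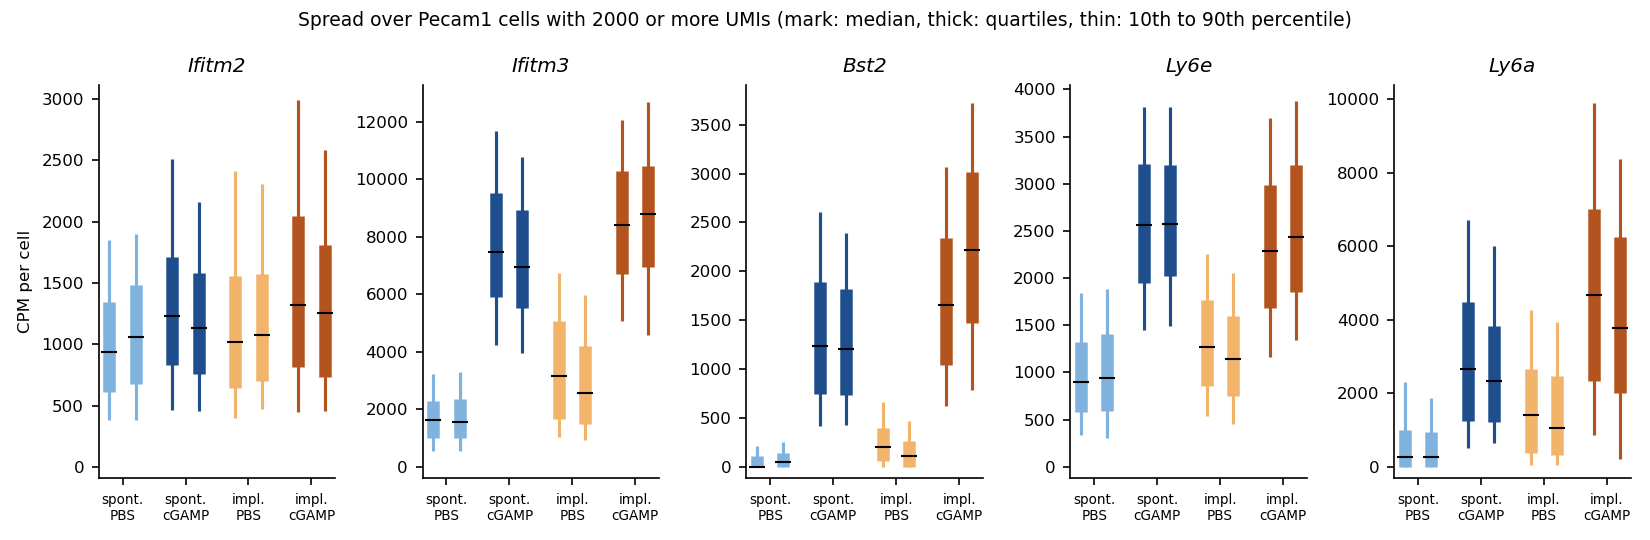
CPM per cell in Pecam1 cells with at least 2000 UMIs for 5 genes, with a column for each library, a mark at the median, thick bars for the quartiles and thin bars from the 10th to the 90th percentile. For Ifitm3 the bars of the cGAMP libraries begin at 3962 CPM or higher, and for Ly6a the bars of the implanted cGAMP libraries span 222 to 9905 CPM.

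Shares of cells with a UMI were compared after thinning each cell to 2000 UMIs, which left out 22 to 102 shallower Pecam1 cells in 7 libraries and 580 in replicate 1 of implanted cGAMP. Bst2 was then found in 14.1% and 17.9% of Pecam1 cells in spontaneous PBS (Wilson 95% intervals 12.0 to 16.6% and 14.9 to 21.3%), 88.0% and 86.9% in spontaneous cGAMP, 37.1% and 28.7% in implanted PBS, and 92.1% and 94.0% in implanted cGAMP. Without thinning the shares were 48.8% and 54.2%, 98.6% and 98.8%, 79.6% and 71.0%, and 98.4% and 98.4% in the same order. None of the cell classes here is known to lack Bst2, so the background from free RNA could not be measured for it. At least 4 of the 6 genes were found in 39.6% and 41.3% of thinned cells in spontaneous PBS, 94.8% and 95.8% in spontaneous cGAMP, 67.9% and 63.7% in implanted PBS, and 96.7% and 95.9% in implanted cGAMP. The groups of PBS and cGAMP libraries did not overlap in either share, and how many of all genes separate by share was not counted. By level, groups did not overlap for 60.3% of all genes tested in spontaneous and 63.1% in implanted tumours. The 6 genes include Ifitm1, which passed the filter on low values through cGAMP. The Wilson intervals cover counting error only.

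Vessel classes were then compared within each library. A Pecam1 cell took the class with the highest standardised score over its marker list, if at least 3 markers had a UMI and the score led the next by 0.25, which gave 1151 arterial-like, 726 capillary-like (AQP7), 1006 tip-like, 1318 stalk-like, 384 lymphatic-like and 294 proliferative cells and left 2280 without a class. The lead of 982 cells lay within 0.1 of that margin, on either side of it. Each class held its own markers at higher sums than any other class did, for example 15698 CPM of lymphatic markers in lymphatic-like cells against 53.7 to 334 CPM in the others. The cells were assigned by these same markers, so this was close to given and is no separate check of the classes. None of the 6 genes is a marker. Some markers moved with cGAMP themselves, so the classes need not hold the same cells after both injections, and the part of this in the class values was not tested. In spontaneous tumours 4 of 10 arterial-like markers fell, 1 of 9 capillary-like markers rose and 1 fell, 3 of 8 tip-like markers rose and 1 fell, 1 of 8 stalk-like markers rose and 1 fell, and 5 of 10 proliferative markers fell, whereas none of the 8 lymphatic-like markers passed the limma test. In implanted tumours 6 arterial-like and 3 capillary-like markers fell, 5 tip-like markers rose and 2 fell, 1 stalk-like marker rose and 3 fell, 4 lymphatic-like markers rose and all 10 proliferative markers fell. Each class was compared with all other Pecam1 cells of its library as a log2 difference of mean CPM plus 1, and limma tested these differences over libraries.

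Arterial-like cells, which line vessels that carry blood to the tumour, held more Ly6a than other ECs in 8 of 8 libraries (1.33 ± 0.07, adjusted p = 3.8e-05, where 34.7% of all genes were called, 15.5% as higher and 19.3% as lower). Ly6a stood there at 2196 and 1807 CPM in spontaneous PBS, 5778 and 4922 CPM in spontaneous cGAMP, 2962 and 2874 CPM in implanted PBS, and 9331 and 6917 CPM in implanted cGAMP. The spontaneous PBS libraries showed the widest gaps to other ECs (2.28 and 2.13), and the remaining 6 lay at 0.84 to 1.32. Differences of -0.18 ± 0.08 for Bst2 (adjusted p = 0.146), -0.17 ± 0.07 for Ifitm2 (adjusted p = 0.108) and -0.16 ± 0.08 for Ifitm3 (adjusted p = 0.161) were not called. Like Ly6a, Ly6e was higher in 8 of 8 libraries, by 0.26 ± 0.07 (adjusted p = 0.0205). That call was lost without either implanted PBS library (0.25 and 0.28, adjusted p = 0.0883 and 0.0638), implanted cGAMP replicate 1 (0.24, adjusted p = 0.0607), spontaneous PBS replicate 1 (0.24, adjusted p = 0.0598) or spontaneous cGAMP replicate 2 (0.24, adjusted p = 0.0528). Ifitm1 differed by -1.03 ± 0.32 (adjusted p = 0.0455) and was lower in 5 of 8 libraries, and leaving out any 1 of 6 libraries ended the call (-0.70 to -1.17, adjusted p = 0.068 to 0.136), namely implanted PBS replicates 1 and 2, implanted cGAMP replicate 1, spontaneous PBS replicate 1 and both spontaneous cGAMP replicates.

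Tip-like cells, which lead vascular sprouts, held less of 4 genes than other ECs, in 8 of 8 libraries for each, where 31.8% of all genes were called, 12.6% as higher and 19.3% as lower. Ifitm2 differed by -0.63 ± 0.09 on the log2 scale (adjusted p = 0.00196), Ifitm3 by -0.33 ± 0.08 (adjusted p = 0.0149), Ly6a by -0.69 ± 0.13 (adjusted p = 0.00735) and Ifitm1 by -1.95 ± 0.26 (adjusted p = 0.0017). Ifitm2 stood at 811 and 866 CPM in spontaneous PBS, 1057 and 1093 CPM in spontaneous cGAMP, 714 and 767 CPM in implanted PBS, and 945 and 882 CPM in implanted cGAMP, below its mean over all Pecam1 cells in each. For Ifitm1 the other ECs include the Pecam1 cells with mural markers, which held most of its UMIs in 5 of 8 libraries (864 of 886 and 648 of 676 in spontaneous cGAMP), and the part of those cells in this gap, and in those of the other classes, was not tested. The Ifitm3 call was lost without implanted PBS replicate 2 (-0.30, adjusted p = 0.0561) or spontaneous cGAMP replicate 1 (-0.32, adjusted p = 0.0564). The gap of Ifitm3 was -0.67 and -0.70 in spontaneous PBS and -0.38 and -0.62 in implanted PBS, and between -0.11 and -0.00 in the 4 cGAMP libraries. Bst2 ran the other way, higher in tip-like cells in 8 of 8 libraries by 0.25 ± 0.08, and missed the threshold (adjusted p = 0.0532), which it passed without spontaneous PBS replicate 2 (0.31, adjusted p = 0.026). Ly6e differed by -0.19 ± 0.07 (adjusted p = 0.0806).

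Stalk-like cells, named from venous markers such as Selp and Ackr1, showed the reverse for Ifitm2 and Ifitm3, in a comparison that called 29.3% of all genes, 9.9% as higher and 19.4% as lower. Ifitm2 was higher in 8 of 8 libraries by 0.74 ± 0.06 (adjusted p = 0.000191), and stood at 1347.5 and 1477 CPM in spontaneous PBS, 1797 and 1534 CPM in spontaneous cGAMP, 2341 and 2129 CPM in implanted PBS, and 2551 and 2752 CPM in implanted cGAMP. The gap was 0.39 to 0.47 in the 4 spontaneous and 0.98 to 1.25 in the 4 implanted libraries, a difference between the models that was not tested. Ifitm3 was higher in 7 of 8 libraries by 0.39 ± 0.05 (adjusted p = 0.00178). Its gap was 0.58 and 0.66 in spontaneous PBS and 0.85 and 0.78 in implanted PBS, and between -0.03 and 0.20 in the cGAMP libraries. Ly6a was lower in 7 of 8 libraries (-0.41 ± 0.08, adjusted p = 0.00907) and Bst2 in 8 of 8 (-0.27 ± 0.07, adjusted p = 0.0263). The Bst2 call was lost without any 1 of 7 libraries (-0.24 to -0.29, adjusted p = 0.0527 to 0.0958), that is each library but implanted cGAMP replicate 1. Ly6e differed by -0.15 ± 0.06 (adjusted p = 0.118) and Ifitm1 by 0.55 ± 0.29 (adjusted p = 0.196), neither of them called.

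Lymphatic-like cells held almost no Ly6a after PBS. It stood at 0 and 7.41 CPM in spontaneous PBS, 423 and 201 CPM in spontaneous cGAMP, 23.8 and 29.7 CPM in implanted PBS, and 1102 and 352 CPM in implanted cGAMP, below the other ECs of the same library in 8 of 8. The mean difference was -5.09 ± 0.46 on the log2 scale (adjusted p = 0.000322, where 27.4% of all genes were called, 13.2% as higher and 14.2% as lower), a size that depends on the pseudocount because 1 library was at 0. These libraries held 21 to 132 lymphatic-like cells each. After thinning, a Ly6a UMI was found in 0 of 23 and in 3.57% of lymphatic-like cells in spontaneous PBS, in 22.2% and 19.0% in spontaneous cGAMP, in 5.56% and 5.13% in implanted PBS, and in 53.2% and 24.6% in implanted cGAMP. Over all Pecam1 cells the thinned shares were 48.0% and 49.1%, 89.4% and 91.9%, 74.3% and 72.3%, and 93.4% and 89.2%. Among the cells with at least 2000 UMIs used here, median depths before thinning were 9076 and 10411 UMIs for lymphatic-like and all Pecam1 cells of spontaneous PBS replicate 1, and 10693 and 9861 UMIs for those of implanted cGAMP replicate 1. The part of free Ly6a RNA in the lymphatic-like values was not tested. Unlike Ly6a, Ifitm3 was higher in lymphatic-like cells, in 8 of 8 libraries by 0.33 ± 0.09 (adjusted p = 0.0412), and leaving out any 1 library ended that call (0.30 to 0.35, adjusted p = 0.0625 to 0.145). Ifitm1 was lower in 8 of 8 (-2.34 ± 0.40, adjusted p = 0.00489). Ifitm2 differed by 0.17 ± 0.10 (adjusted p = 0.274). Bst2 (0.31 ± 0.13, adjusted p = 0.124) and Ly6e (-0.33 ± 0.12, adjusted p = 0.0944) were not called, and Bst2 was called without spontaneous PBS replicate 2 (0.43, adjusted p = 0.0363).

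In capillary-like cells limma called 0 of the 6 genes, against 11% of all genes (2.46% as higher and 8.57% as lower), and 2 of them, Ly6a (0.25 ± 0.09, adjusted p = 0.124) and Ly6e (0.19 ± 0.07, adjusted p = 0.145), had an unadjusted p under 0.05. Proliferative cells reached 20 cells in 3 PBS libraries and in no cGAMP library. In those 3 libraries Ly6a was lower than in other ECs, by -0.84 on the log2 scale, at 435, 965 and 957 CPM. The difference was -0.65 for Ifitm1, -0.52 for Ifitm2, -0.51 for Ifitm3, -0.21 for Bst2 and 0.05 for Ly6e. This fit to PBS libraries only was not planned, and spontaneous PBS gave it 1 library, so sizes alone are given.

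**Figure D5:**
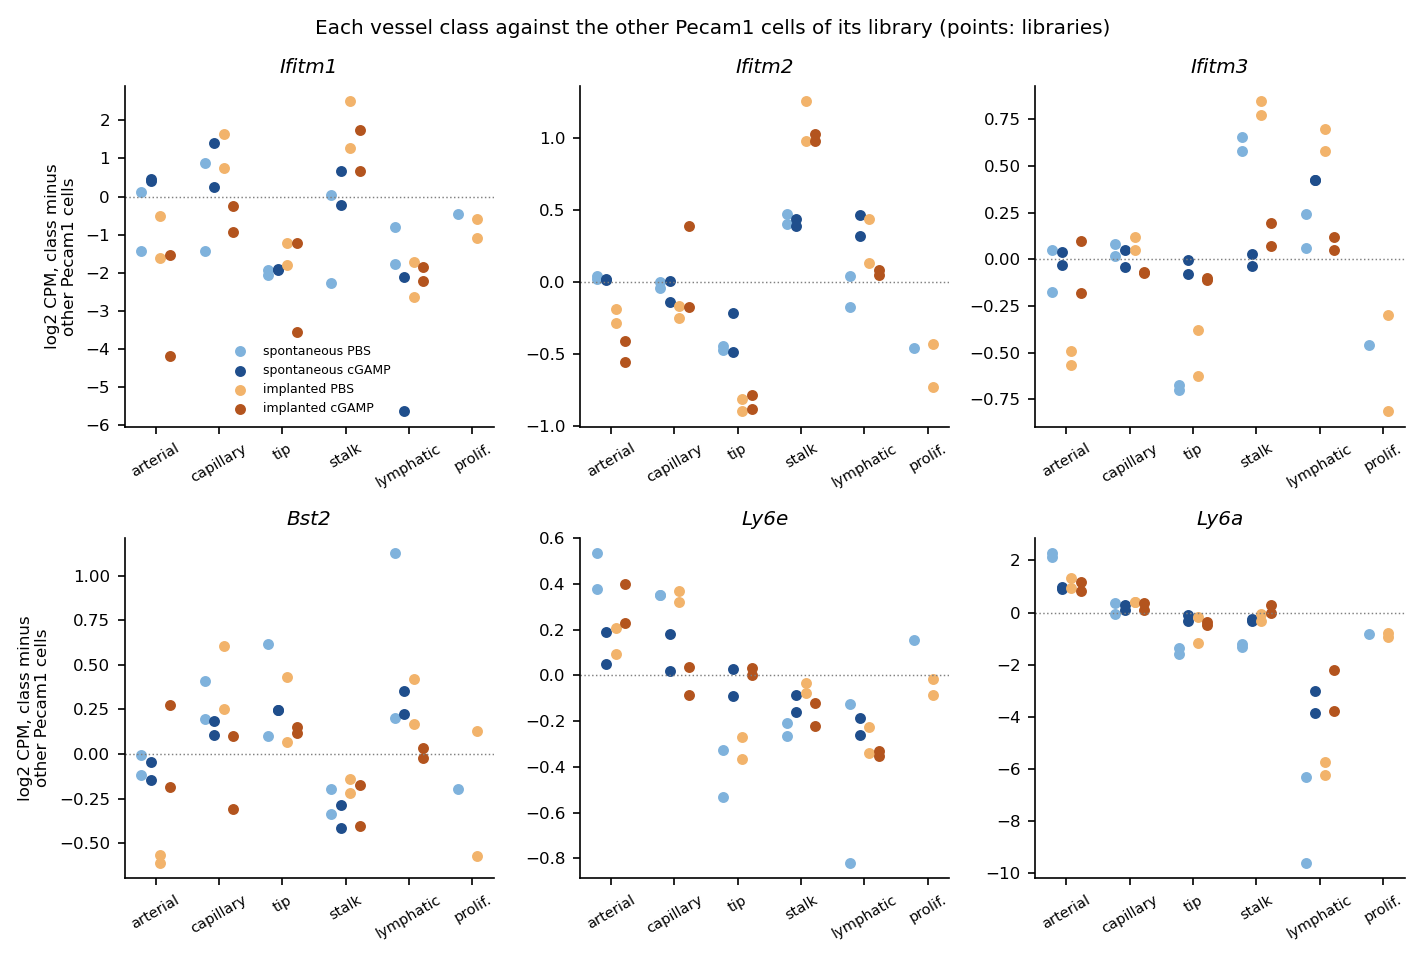
Log2 difference of mean CPM plus 1 between each vessel class and the other Pecam1 cells of the same library, with a point for each library with at least 20 cells of the class, coloured by group. Ly6a lies at 0.84 to 2.28 in arterial-like and at -9.60 to -2.21 in lymphatic-like cells, and Ifitm2 at 0.39 to 1.25 in stalk-like and at -0.90 to -0.22 in tip-like cells.

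In each of the 5 classes with enough cells the group means of Bst2, Ifitm3, Ly6e and Ly6a were higher after cGAMP than after PBS, values not tested within a class. The ratio of the group means of Bst2 was 11.3 to 14.5 in the 5 classes of spontaneous tumours and 6.00 to 12.0 in those of implanted tumours. That of Ifitm3 ran from 2.97 in stalk-like to 6.20 in tip-like cells of spontaneous tumours. In implanted tumours it ran from 1.76 in lymphatic-like to 3.35 in arterial-like cells, with 1.79 in stalk-like and 3.23 in tip-like cells. That of Ly6a was 2.67 in arterial-like, 8.07 in stalk-like and 10.1 in tip-like cells of spontaneous tumours, and 2.78, 3.22 and 3.04 in those of implanted tumours. In capillary-like cells it was 4.58 in spontaneous and 2.455 in implanted tumours. The largest ratios of Ly6a were those of lymphatic-like cells, 84.1 in spontaneous and 27.2 in implanted tumours, from low PBS means of 3.71 and 26.7 CPM. Whether the response differed between a class and the other ECs was tested with limma as cGAMP minus PBS of the class differences, and 0 of 10424 genes were called in any of the 5 classes in either model (401 to 1810 had an unadjusted p under 0.05). For Ly6a that value in spontaneous tumours was -1.26 ± 0.21 in arterial-like (adjusted p = 0.303), 1.28 ± 0.37 in tip-like (adjusted p = 0.395) and 0.99 ± 0.22 in stalk-like cells (adjusted p = 0.452). For Ifitm3 in stalk-like cells it was -0.62 ± 0.15 (adjusted p = 0.49) in the spontaneous model and -0.68 ± 0.15 (adjusted p = 0.119) in the implanted one. None passed, so no class was shown to respond more or less than the others.

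The genes most like each of the 6 across Pecam1 cells were ranked by Pearson's r of the per-cell ln values, taken within a library and averaged over 8 libraries. These cells share library and depth, so the values are a description. Ifitm3 and Bst2 led each other (0.447), and both lists went on with Psmb8, an immunoproteasome subunit (0.442 and 0.383), B2m, the light chain of MHC class I (0.439 and 0.398), and H2-K1, an MHC class I heavy chain (0.414 and 0.365). Ifitm2 was closest to Ifitm3 (0.444), followed by the iron store gene Fth1 (0.335) and the stalk-like markers Lrg1 (0.321) and Ackr1 (0.301). Ly6a was closest to Ly6c1, its neighbour and relative (0.657, between 0.594 and 0.803 in single libraries), and its list also held the arterial marker Sema3g (0.39). Transcripts of Ly6a and Ly6c1 share 118 identical bases, and the part of shared reads in this value was not tested. Ly6e was closest to Ly6a (0.369) and Ly6c1 (0.354). The list of Ifitm1 was made of Rgs5 (0.522), Rarres2 (0.5), Des (0.475), Pdgfrb (0.454) and Vtn (0.45), of which Rgs5 and Pdgfrb are mural markers, and its mean r with the other 5 genes of the set was -0.01 to 0.06.

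Genes around the 6 were read from lists grouped by role, which were chosen with earlier results of these data known. Of the other Ifitm genes 1 of 4 was tested, Ifitm10, and it was not called in either response (-0.69, adjusted p = 0.209, and 0.27, adjusted p = 0.611). Of 22 further genes of the LY6 family 7 were tested, of which 2 rose and 1 fell in spontaneous and 4 rose and 1 fell in implanted tumours, with median log2 differences of 0.12 and 0.89 against -0.10 over all genes in both. Of all genes 5.09% rose and 7.59% fell in spontaneous tumours, and 8.6% rose and 16.4% fell in implanted tumours. Ly6c1 rose by 0.98 and 1.06 (adjusted p = 5.5e-05 and 4.1e-05), from 1104 to 1118 CPM to 2145 to 2233 CPM in spontaneous tumours. Ly6c2, a marker of monocytes, rose by 2.31 and 4.36 (adjusted p = 0.0301 and 0.000708) and reached 73.8 and 19.1 CPM in implanted cGAMP, the libraries with the highest immune marker sums. Gpihbp1, which carries lipoprotein lipase across capillary ECs, differed by 0.12 and 0.04 (adjusted p = 0.675 and 0.892). The LY6 relative Cd59a, a complement inhibitor, fell by 0.39 in spontaneous tumours (adjusted p = 0.0465), a call lost with median-of-ratios scaling.

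Of 5 tested enzymes and partners of IFITM proteins, 2 fell in spontaneous and 3 in implanted tumours under either scaling, with medians of -0.37 and -0.45 on the CPM scale, and the others were not called. Of all genes 7.59% fell in spontaneous and 16.4% in implanted tumours on that scale, with a median of -0.10 in both. Zdhhc20, which palmitoylates IFITM3, fell by 0.44 and 0.45 (adjusted p = 0.00698 and 0.00344), Nedd4, a ubiquitin ligase of IFITM3, fell by 0.37 and 0.61 (adjusted p = 0.00687 and 0.00024), and Setd7, a methyltransferase, fell by 0.74 in implanted tumours (adjusted p = 0.00294). Vapa differed by 0.05 and 0.12 (adjusted p = 0.761 and 0.335). Of 18 tested genes that build or attach the GPI anchor carried by tetherin, LY6E and LY6A, 2 fell in spontaneous and 5 in implanted tumours, against 7.59% and 16.4% of all genes. The medians of the 18 were -0.09 and -0.18, against -0.10 over all genes in both models, and the others of the 18 were not called. With median-of-ratios scaling limma called 0 of the 18 in spontaneous and 4 as lower in implanted tumours. Gpaa1 fell by 0.38 and 0.55 (adjusted p = 0.0466 and 0.00517) and Pigt fell by 0.36 and 0.55 (adjusted p = 0.0314 and 0.00241), both subunits of the transamidase that attaches the anchor.

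Signalling genes of the interferon receptor and ISGF3 rose in part. Of 14 tested, 7 rose and the others were not called in spontaneous tumours, and 8 rose and 2 fell in implanted tumours, with medians of 0.66 and 0.49. Of all genes 5.09% rose in spontaneous and 8.6% in implanted tumours, with a median of -0.10 in both. Irf7, a transcription factor of interferon genes, rose from 20.2 and 27.2 CPM to 1421 and 1392 CPM in spontaneous tumours (5.85, adjusted p = 2.4e-07) and from 96.9 and 65.0 CPM to 1274 and 1540 CPM in implanted tumours (4.12, adjusted p = 3.1e-06). Jak1, a receptor kinase, differed by -0.05 and -0.02 (adjusted p = 0.721 and 0.876). Of 20 tested antiviral genes outside the 6, all 20 rose in both models, with medians of 3.99 and 2.83. Isg15, a ubiquitin-like protein, rose by 4.32 and 3.20 (adjusted p = 5.8e-07 and 7.1e-06) and Rsad2, the gene of viperin, by 4.75 and 4.11 (adjusted p = 1.1e-06 and 6.4e-06). After PBS, 17 of these 20 antiviral genes and 7 of the 14 signalling genes were higher in implanted than in spontaneous tumours, among them Isg15 (1.72, adjusted p = 0.000685) and Irf7 (1.72, adjusted p = 0.000889). Of all genes 3.39% were called as higher in that comparison. The response was smaller in implanted tumours for 3 of the 20 and for 2 of the 14, which included Ifit3 (-2.13, adjusted p = 0.0211), Zbp1 (-2.68, adjusted p = 0.0211), Irf7 (-1.73, adjusted p = 0.029) and Irf9 (-0.91, adjusted p = 0.0241). Of all genes 0.46% were called with a lower value in implanted tumours by this interaction test.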

How the data were processed

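Live CD31+ cells of 8 libraries were profiled with 10x 3′ single-cell RNA sequencing. The authors mapped reads to mm10 with Cell Ranger 3.0.0 (annotation release not given in the sources used here), removed cells with under 500 genes or over 10% mitochondrial UMIs and genes seen in under 3 cells, and normalised in Seurat 3.1.1. The deposited values are the natural log of 1 plus a gene's UMIs per 10000 UMIs of the cell. CPM were computed back from them, and UMIs as whole numbers within 0.01. No doublets were removed here.

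Levels per library (Pecam1 cells 7451522 to 16338968 UMIs) were compared as log2(CPM + 1) with limma 3.58.1 in R 4.3.3 (eBayes with trend), over 8 libraries and 4 groups, for the 10424 genes that reached 5 CPM in 2 or more libraries, with Benjamini-Hochberg adjustment. Fold changes of low genes are understated on this scale. Tests of simulated data on 10074 genes recovered 100 of 100 genes changed by a log2 of 1 in the implanted comparison (18 false calls) and 98 of 100 in the interaction (11 false calls). The simulation gave all genes the same small spread between libraries besides counting error. Real spreads could be wider, as for Bst2 in implanted PBS (285 and 191 CPM), so these counts do not measure the power of this design. Python used numpy 2.4.6, scipy 1.17.1, pandas 2.3.3 and matplotlib 3.10.9.

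Members and gene lists were chosen with earlier results of these data known. Text reports the 6 genes in each comparison, by value or, for some in capillary-like cells, within a count of genes not called. From each list it names at most the 2 called genes of largest change and the 2 of highest level. Other genes were picked after their values were seen. Genes of like pattern come from the 5 of highest mean correlation. Alternatives were another pseudocount, filter, scaling, cell set, class rule and set of libraries, summed UMIs and a replicate block.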

Additional observations from a re-analysis of the deposited data

Results flagged for a closer look

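The response of Ifitm3 to cGAMP differed between the models by the interaction test. The log2 rise was 2.05 in spontaneous and 1.34 in implanted tumours, a difference of -0.71 ± 0.12 (limma adjusted p = 0.0459, 1 of 69 genes called). All 4 cGAMP libraries were higher than all 4 PBS libraries, a split whose share over all genes was not counted. Levels after PBS were higher in the implanted model (3604 and 3096 CPM against 1805 and 1817 CPM), while levels after cGAMP were 8131 and 8830 CPM against 7801 and 7242.5 CPM. Adjusted p ranged from 0.0173 with summed UMIs to 0.282 with no filter on low values.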

How the results depend on the processing

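Rises of Bst2, Ifitm3, Ly6e and Ly6a after cGAMP kept their calls in both models under every alternative run. Of differences of single genes between groups or classes, 824 kept direction and side of the threshold, 66 were no longer called, 20 became called and 17 changed sign. The cause of the changes below was not tested. With no filter on low values, limma called 812 genes in place of 1322 in the spontaneous response, 0 in place of 69 for the difference of responses, 327 in place of 816 after PBS and 784 in place of 1434 after cGAMP. Summed UMIs gave 2839, 112 and 1317 genes for the first 3 of these, and all deposited cells gave 43 for the difference. Of the 6 genes, the difference of responses was called for 1, against 0 with all deposited cells, with no filter or with a pseudocount of 5 CPM, and 2 with summed UMIs. After cGAMP the models differed in 1 gene, against 2 with median-of-ratios scaling, stricter cells or summed UMIs and 0 with no filter. Leaving out single libraries gave 0 to 1 and 0 to 2 for those counts, and 1 to 3 genes for arterial-like cells. It gave 1265 to 2495 genes of all those tested in the implanted response (2609 with all libraries), 448 to 1808 in the spontaneous response, 2 to 171 for the difference, 212 to 1234 after PBS, 156 to 1447 after cGAMP and 350 to 1389 for capillary-like cells (1149 with all).

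Signs changed only near zero or for Ifitm1. The difference of responses of Ifitm1 (0.12) became -0.157 with a pseudocount of 5 CPM and -0.236 with summed UMIs, and ranged from -0.733 to 0.964 without single libraries. That of Ifitm2 (0.00) became -0.003 with cells of at least 2000 UMIs or median-of-ratios scaling, -0.004 with stricter cells and -0.055 with summed UMIs, and ranged from -0.089 to 0.092. In stricter cells Ifitm1 was higher in implanted tumours by 0.305 after PBS and 2.061 after cGAMP. Ifitm2 in capillary-like cells ranged from -0.12 to 0.022.

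Whether the replicate numbers pair the libraries is not known. Deviations of same-numbered libraries correlated at -0.216 to 0.125 over the 6 pairs of groups. Each group gives a single deviation per gene, so these values cannot decide the pairing. With the number as a replicate block, limma called 5 of the 6 genes in the spontaneous, 6 in the implanted response and 1 for the difference, which was Ly6a (-0.70, adjusted p = 0.0276) in place of Ifitm3 (adjusted p = 0.0539). Over all genes it called 1230, 2524 and 58. A replicate block over the 4 libraries compared gave 1994 genes in the spontaneous response and 3 of the 6 genes between models after cGAMP. Crossed numbers, added after seeing the data, gave 1826 genes in the spontaneous response and 1601 after PBS.

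Each group had 2 libraries. Replicate 1 of implanted cGAMP was shallow, Ifitm1 rested on few UMIs, and lymphatic-like cells numbered 21 to 132 a library.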
